A study of Homo sapiens with 2 samples.

Results

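The epithelial microRNAs (miRNAs) described here are the products of 7 hairpin precursors: mir-200b, mir-200a and mir-429, mir-200c and mir-141, mir-203a, and mir-205. They were chosen by the hairpin name of each entry in the deposited table, both arms included, and 10 of the 1497 mature miRNA names in the table belong to them. The 3 hairpins mir-200b, mir-200a and mir-141 have an entry for each arm, and the other 4 have 1 entry each. Small RNA sequencing was performed on A375, an established human melanoma cell line, in dishes treated with DMSO (a solvent used as vehicle) for 48 h. The 2 libraries form 1 group, so no treatment was compared. The labels describe them as independent without saying whether they came from separate cultures, so part of their difference could be technical. Values are RPM, reads per 1000000 read assignments.

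MiRNAs are short RNAs cut from hairpin precursors that guide Argonaute proteins to messenger RNAs, chiefly through the seed, bases 2 to 8 from the 5′ end. The miR-200 family and miR-205 are abundant in epithelia, where they repress ZEB1 and ZEB2, transcription factors that switch off E-cadherin, and ZEB1 and ZEB2 in turn repress the miR-200 genes. MiR-203 is abundant in differentiating keratinocytes, where it represses the stem cell factor p63. Melanocytes come from the neural crest and are not epithelial cells, although in skin they touch keratinocytes.

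Of the 10 members, 9 had a mature sequence in RefSeq (GRCh38.p14). The 5 miR-200 guides, the arms for which the family is known, are shown because they fall into a pair of seeds that cut across their genomic clusters, with the seed in capitals.
miR-200b-3p: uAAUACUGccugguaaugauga
miR-200c-3p: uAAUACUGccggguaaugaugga
miR-429: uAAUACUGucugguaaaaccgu
miR-200a-3p: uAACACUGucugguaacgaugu
miR-141-3p: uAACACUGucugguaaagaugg

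The seeds AAUACUG and AACACUG differ by 1 base, U4C from miR-200b-3p to miR-200a-3p, counted from 1 at the 5′ end. Over the first 22 bases miR-200b-3p and miR-200c-3p differ at 2 positions (U11G and A22G), and miR-200a-3p and miR-141-3p at 2 positions (C17A and U22G). MiR-429 is the most distant guide, with 5 to 7 differences from the others. How many mismatches the authors' alignment allowed is not given in the sources used here, so reads of such close relatives could have been assigned to one another. No other miRNA of the RefSeq table shared a guide's seed. MiR-203a-3p and miR-205-5p have seeds of their own.
miR-203a-3p: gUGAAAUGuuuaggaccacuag
miR-205-5p: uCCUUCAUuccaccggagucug

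The positions are from GENCODE 29 (GRCh38), and the build behind the deposited values is not given in the sources used here. MIR200B (1167104 to 1167198), MIR200A (1167863 to 1167952) and MIR429 (1169005 to 1169087) lie on the plus strand of chromosome 1 within 1984 bases, with gaps of 664 and 1052 bases, and overlap no other annotated gene. MIR200C (6963699 to 6963766) and MIR141 (6964097 to 6964191) lie on the plus strand of chromosome 12 within 493 bases, 330 bases apart, within MIR200CHG, a long noncoding gene, and outside its exons. MIR205 (209432133 to 209432242) lies elsewhere on chromosome 1 and overlaps an exon of MIR205HG. MIR203A (104117405 to 104117514) lies on the plus strand of chromosome 14, where MIR203B overlaps it on the minus strand. MiR-203b-3p had no row.

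The libraries held 10816826 and 15428446 read assignments, so that 1 read equalled 0.0924 RPM in replicate 1 and 0.0648 RPM in replicate 2. The 10 members together had 632 and 1137 reads. Melanocyte and melanoma markers were checked against the label of the line: 6 of 7 listed stood at 10 RPM or more in both libraries, led by miR-182-5p, miR-204-5p and miR-146a-5p, while miR-211-5p, encoded in the melanocyte gene TRPM1, had 3 and 2 reads. Of the blood markers, 1 of 7 stood at that level, miR-486-5p at 186 ± 20.7 RPM (SD, n = 2), and the red cell miRNA miR-451a had 1 read in replicate 1 and 0 in replicate 2. The part of other cells in the values below was not tested.

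The miR-200 family was present at low levels in both libraries, and miR-203a and miR-205 were at the limit of counting. The 7 guides summed to 54.4 RPM in replicate 1 and 70.8 RPM in replicate 2, a mean of 62.6 ± 11.6 RPM (SD, n = 2) or 0.00626% of the deposited total. In these bulk samples fewer cells with a miRNA and less of it per cell cannot be told apart. The miR-200 guides made up 99.7% and 99.3% of these sums. MiR-200b-3p and miR-141-3p, 2 of the 10 members, stood at 10 RPM or more in both libraries, a level reached by 335 of all 1497 mature names (22.4%). At 1 RPM or more the members numbered 6 of 10, against 39.6% of all names. The median of the 10 members was 1.85 RPM and that of all names 0.588 RPM.

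The guide hsa-miR-200b-3p was the most abundant member, with 26.3 RPM (284 reads) in replicate 1 and 31.4 RPM (485 reads) in replicate 2. Its mean of 28.8 ± 3.66 RPM placed it at rank 260 of the 1497 names, between miR-3605-5p (29.1 ± 2.85 RPM) and miR-29c-3p (28.2 ± 0.0443 RPM). The guide hsa-miR-141-3p followed with 15.6 RPM (169 reads) and 23.2 RPM (358 reads), a mean of 19.4 ± 5.36 RPM at rank 292. These were the members counted from over 100 reads in each library, and both stood far below the levels of the leading miRNAs of the line. The highest, miR-100-5p, had a mean of 74782 RPM. MiR-204-5p, a listed melanocyte and melanoma marker at rank 43, was 105-fold above miR-200b-3p in replicate 1 and 79.5-fold in replicate 2.

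The guide hsa-miR-200c-3p had 6.56 RPM (71 reads) and 9.72 RPM (150 reads), a mean of 8.14 ± 2.23 RPM at rank 372. In replicate 2 it lay just under the 10 RPM minimum, with a 95% Poisson interval of 8.23 to 11.4 RPM. Below it, hsa-miR-200a-3p had 4.07 RPM (44 reads) and 3.31 RPM (51 reads), and was the only miR-200 guide that was lower in replicate 2. Last, hsa-miR-429 had 1.66 RPM (18 reads) and 2.59 RPM (40 reads), the lowest of the family. Poisson and binomial intervals cover counting error only, since reads copied by PCR without molecular identifiers are not independent molecules.

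Outside the family, hsa-miR-203a-3p had 1 read in replicate 1 and 7 in replicate 2, 0.0924 and 0.454 RPM, with intervals of 0.00234 to 0.515 and 0.182 to 0.935 RPM that overlap. Lowest of all, hsa-miR-205-5p had 1 read in each library, 0.0924 and 0.0648 RPM, and the upper bounds of its intervals were 0.515 and 0.361 RPM. It shared rank 1227 with 41 other names. A difference between miR-203a-3p and miR-205-5p was not detectable at this depth: they were equal in replicate 1, and their intervals overlapped in replicate 2.

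**Figure D1:**
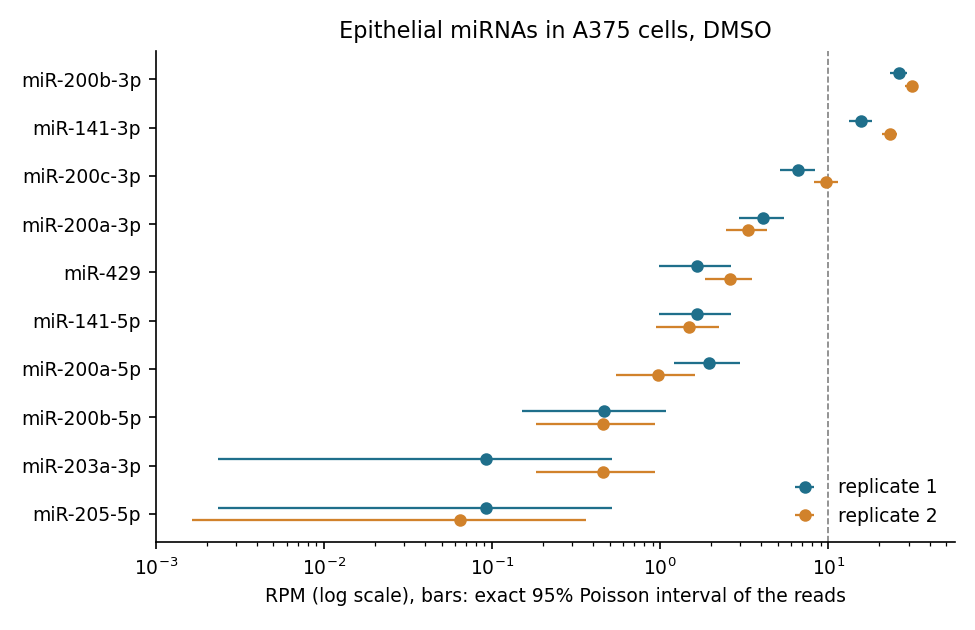
RPM of the 10 members (log axis) in replicate 1 and replicate 2, with bars for the exact 95% Poisson interval of the reads and a dashed line at 10 RPM. MiR-200b-3p and miR-141-3p lie right of the line in both libraries. The widest intervals are those of miR-203a-3p and miR-205-5p where they rest on 1 read, and miR-200b-5p, with 5 and 7 reads, also has wide ones.

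The order of the miR-200 guides, miR-200b-3p, miR-141-3p, miR-200c-3p, miR-200a-3p and miR-429, was the same in both libraries, and the ranges of mean ± SD of neighbours did not overlap. Counting error left 2 steps unresolved in 1 library each. The intervals of miR-200c-3p and miR-200a-3p overlapped in replicate 1, where they were 1.61-fold apart, and those of miR-200a-3p and miR-429 overlapped in replicate 2, where they were 1.27-fold apart. From the highest to the lowest miR-200 guide the means spanned 13.6-fold. Nearest in level by mean RPM were miR-34a-3p and miR-1296-5p to miR-141-3p, miR-183-3p and miR-10b-3p to miR-200c-3p, miR-549a and miR-6716-3p to miR-200a-3p, and miR-887-3p and miR-3661 to miR-429. With 2 libraries of 1 group this is a position in the order and no shared pattern.

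The clusters were then compared within each library, where depth cancels. The 3 guides of the chromosome 1 cluster summed to 32 RPM (346 reads) in replicate 1 and 37.3 RPM (576 reads) in replicate 2, and the 2 guides of the chromosome 12 cluster to 22.2 RPM (240 reads) and 32.9 RPM (508 reads). The chromosome 1 cluster was thus the higher sum in both libraries. The chromosome 12 cluster held 41.0% of the miR-200 guide reads in replicate 1 (exact binomial 95% interval 36.9 to 45.1) and 46.9% in replicate 2 (43.9 to 49.9). Over libraries the ratio of chromosome 12 to chromosome 1 was 0.788 ± 0.133 (SD, n = 2). No exact test over 2 libraries can reach p = 0.05, so none was made across samples.

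That order rests on miR-200b-3p and on the number of hairpins. As a mean per hairpin the ratio turned to 1.18, with 11.1 RPM a hairpin on chromosome 12 against 10.7 on chromosome 1 in replicate 1 and 16.5 against 12.4 in replicate 2. Without miR-200b-3p the chromosome 12 cluster was 4.73-fold the higher.

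Each cluster was led by a different seed. On chromosome 1 miR-200b-3p made up 82.1% of the cluster's guide reads in replicate 1 and 84.2% in replicate 2. MiR-200a-3p made up 12.7% (interval 9.39 to 16.7) and 8.85% (6.66 to 11.5), and miR-429 made up 5.20% (3.11 to 8.10) and 6.94% (5.01 to 9.34). The chromosome 12 cluster was led by miR-141-3p, a guide with the seed of miR-200a-3p, at 70.4% (64.2 to 76.1) and 70.5% (66.3 to 74.4). The remaining 29.6% and 29.5% were miR-200c-3p, so the composition of this cluster was nearly equal in the 2 libraries although its sum was 1.48-fold higher in replicate 2.

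Between guides of 1 seed, the highest was on chromosome 1 for AAUACUG (miR-200b-3p) and on chromosome 12 for AACACUG (miR-141-3p). MiR-429, the other AAUACUG guide on chromosome 1, lay below miR-200c-3p of chromosome 12 in both libraries (18 against 71 reads and 40 against 150). MiR-200b-3p exceeded miR-200c-3p 4.0-fold in replicate 1 (95% interval 3.07 to 5.26) and 3.23-fold in replicate 2 (2.69 to 3.91). MiR-141-3p exceeded miR-200a-3p 3.84-fold (2.74 to 5.48) and 7.02-fold (5.22 to 9.61). Summed over clusters, guides with the AAUACUG seed held 63.7% (59.6 to 67.6) and 62.3% (59.3 to 65.2) of the miR-200 guide reads, and the ratio of AAUACUG to AACACUG guides was 1.70 ± 0.0713 (SD, n = 2). The intervals of the 2 libraries overlapped for the seed share and, narrowly, for the cluster share. Whether the seed share moved less than the cluster share was not tested.

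**Figure D2:**
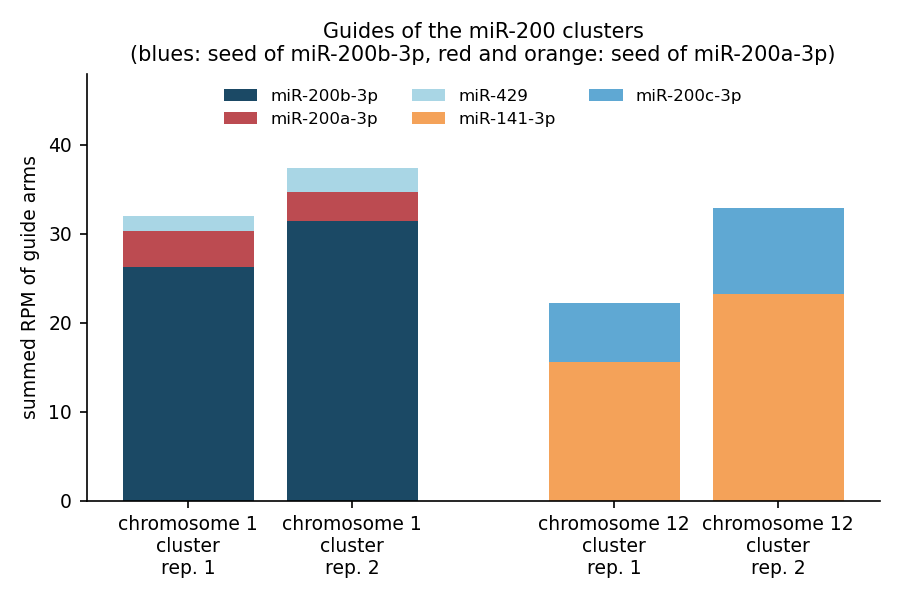
Summed RPM of the guide arms of the chromosome 1 cluster and the chromosome 12 cluster, 1 bar per library, stacked by guide, with blues for the seed of miR-200b-3p and red and orange for that of miR-200a-3p. MiR-200b-3p fills 82.1% and 84.2% of the chromosome 1 bars, and miR-141-3p fills 70.4% and 70.5% of the chromosome 12 bars.

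The 3p arm was the higher in all 3 hairpins with both arms listed, over 2-fold in each library by RPM. In mir-200a it was so by a small margin, 2.10-fold in replicate 1 and 3.40-fold in replicate 2. Among all 451 hairpins with both arms, 30.4% favoured the 3p arm and 37.9% the 5p arm by that rule. The 5p arms of mir-200b and mir-200a, opposite the guides, are shown because they share 1 seed, AUCUUAC, whereas their guides do not.
miR-200b-5p: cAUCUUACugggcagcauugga
miR-200a-5p: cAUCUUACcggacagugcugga

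The share of the 5p arm varied from hairpin to hairpin. In mir-200b it was 1.73% (interval 0.564 to 3.99) in replicate 1 and 1.42% (0.574 to 2.91) in replicate 2, from 5 and 7 reads of miR-200b-5p. In mir-141 it was 9.63% (5.81 to 14.8) and 6.04% (3.86 to 8.92), from 18 and 23 reads of miR-141-5p, or 1.66 and 1.49 RPM. In mir-200a it was 32.3% (21.2 to 45.1) and 22.7% (13.3 to 34.7), from 21 and 15 reads of miR-200a-5p, or 1.94 and 0.972 RPM. The intervals of the 3 hairpins did not overlap in either library, and their order was the same in both.

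The neighbours mir-200b and mir-200a thus ran in opposite order on their arms. MiR-200b-3p was 6.45-fold above miR-200a-3p in replicate 1 (interval 4.69 to 9.08) and 9.51-fold in replicate 2 (7.12 to 13). On the other arm miR-200a-5p was 4.2-fold above miR-200b-5p in replicate 1 (1.54 to 14.3) and 2.14-fold in replicate 2 (0.822 to 6.21), so in replicate 2 the 5p arms were not resolved. On the log2 scale of 5p over 3p with 1 RPM added, the hairpins stood at -4.35 ± 0.18 (mir-200b), -2.96 ± 0.45 (mir-141) and -0.96 ± 0.24 (mir-200a). On that scale mir-200a was at -0.78 in replicate 1 and -1.13 in replicate 2, so it was not past 2-fold in replicate 1 or in the mean. Between the libraries the arm share differed in 0 of the 3 past an adjusted p of 0.05, against 21.5% of all 386 hairpins tested. Fisher's exact test, two-sided, with Benjamini-Hochberg adjustment over these gave adjusted p 1.0, 0.352 and 0.559. The unadjusted p in Fisher's exact test was 0.768, 0.124 and 0.245. Those 386 include hairpins with far more reads, such as mir-21 with 646126 5p reads in replicate 1. At the members' depth the test has less power, so 0 of 3 does not show a stable arm share.

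**Figure D3:**
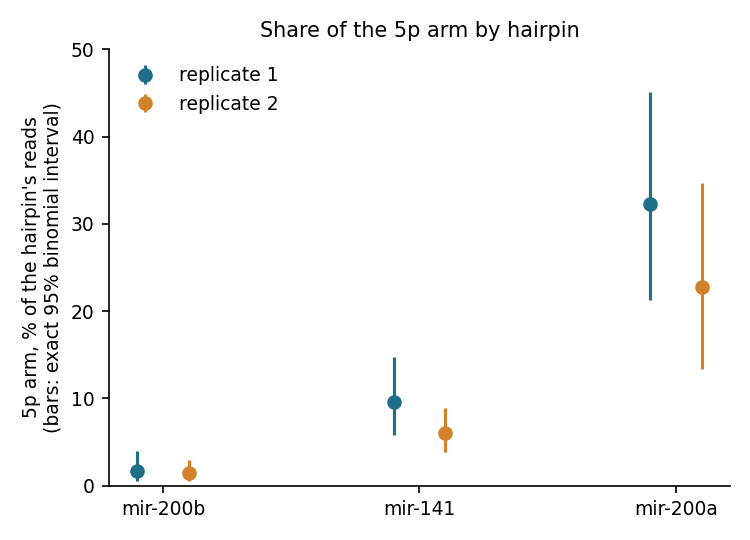
Share of the 5p arm in the reads of mir-200b, mir-141 and mir-200a in replicate 1 and replicate 2, with exact 95% binomial intervals. The share is lowest in mir-200b (1.73% and 1.42%) and highest in mir-200a (32.3% and 22.7%), with no overlap between hairpins.

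The libraries were compared as the only measure of error. Reads of 869 names with 10 or more reads were tested by Fisher's exact test, two-sided, with Benjamini-Hochberg adjustment. At an adjusted p under 0.05 and over 2-fold, 40 names were called (4.6%), 11 higher in replicate 2 (1.27%) and 29 higher in replicate 1 (3.34%), and 0 of the 8 members tested. With the totals scaled by the median ratio, 15 of 38 called names were higher in replicate 2. This test compares the 2 libraries and no condition, and covers counting error only. Without the fold limit 34.5% of names had an adjusted p under 0.05, among them 3 of the 8 members, and 4 of the 8 had an unadjusted p under 0.05. The 3 were miR-141-3p, 1.49-fold higher in replicate 2 (log2 0.57, adjusted p 8.39e-05), miR-200c-3p, 1.48-fold higher (log2 0.56, adjusted p 0.0205), and miR-200b-3p, 1.2-fold higher (log2 0.26, adjusted p 0.0459). With no read minimum, miR-200b-3p had an adjusted p of 0.078 in Fisher's exact test, and over all alternatives its adjusted p ran from 0.00299 to 0.078.

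Of the 5 guides with enough reads to be tested, 4 were higher in replicate 2, while 44.9% of all tested names, both arms included, were. The 3 other arms were lower in replicate 2 (log2 -0.17 for miR-141-5p, -0.98 for miR-200a-5p and -0.06 for miR-200b-5p). Of all 10 members 5 were higher in replicate 2, so the members as a whole did not stand apart from that share. The guides miR-141-3p and miR-200c-3p of the chromosome 12 cluster shifted by nearly the same factor, and the share of that cluster in the miR-200 guide reads was 41.0% and 46.9%. In Fisher's exact test, two-sided, this share had p = 0.0233 between the libraries (p = 0.0143 with both arms) and the share of the AAUACUG seed p = 0.596. Adjusted by Benjamini-Hochberg over the cluster and seed shares, these exact tests gave 0.0465 and 0.596, for counting error only. Among names of 10 to 100 RPM the median absolute log2 difference was 0.29 and the 90th percentile 0.61. The log2 differences of miR-141-3p and miR-200b-3p lay below that percentile when the sign is ignored. With the sign kept, the median of these names was -0.13, and 40.0% were higher in replicate 2. With totals scaled by the median ratio miR-141-3p stood at 0.67, above the unscaled 90th percentile. No percentile was computed on scaled totals, so this does not place miR-141-3p beyond the spread of these names. Among names of 1 to 10 RPM the median absolute log2 difference was 0.36 and the 90th percentile 0.97. MiR-200a-5p, 2.0-fold higher in replicate 1, lay just beyond the latter (log2 -0.98, unadjusted p 0.0422 and adjusted p 0.105 in Fisher's exact test).

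**Figure D4:**
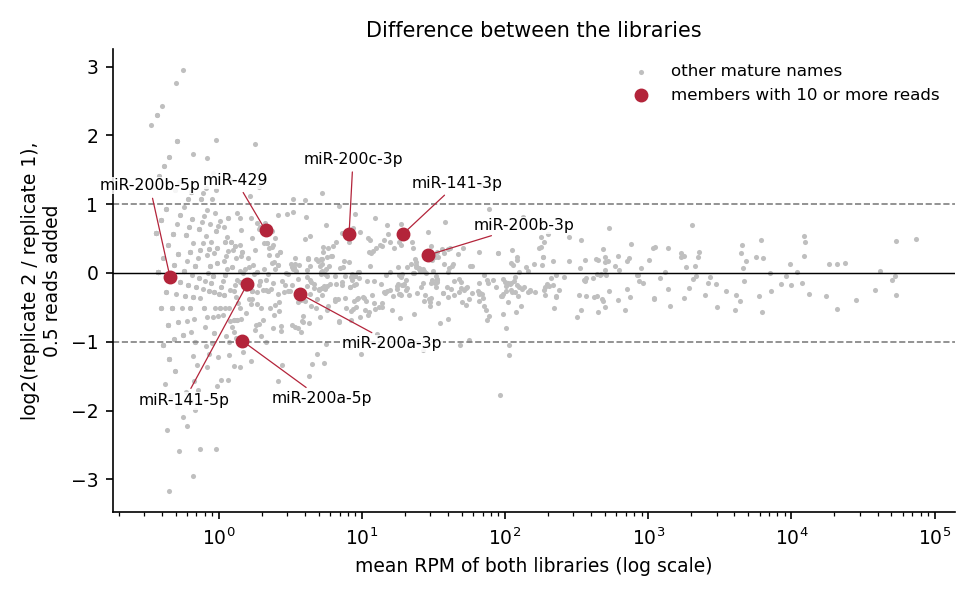
Log2 ratio of replicate 2 to replicate 1, with 0.5 reads added, against mean RPM (log axis) for the 869 tested names, with the 8 tested members in red and dashed lines at 2-fold. The members lie inside the 2-fold lines, with miR-200a-5p at -0.98 next to the lower line.

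Other miRNAs linked to epithelia or to mesenchyme give the scale of these levels. Of 12 other names linked to epithelia, 11 were listed and 7 stood at 10 RPM or more in both libraries. They were led by miR-182-5p (7040 ± 3.20 RPM), miR-192-5p (4603 ± 159 RPM) and miR-31-5p (3004 ± 713 RPM), and the lowest were miR-375 (1.92 ± 0.155 RPM), known from pancreatic islets and gut epithelium, and miR-184 (0.125 ± 0.0849 RPM), known from the cornea. Their median was 51.1 RPM, against 3.69 RPM for the 7 guides described here. MiR-182-5p is also a melanoma-linked miRNA and stands in the melanocyte list.

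All 10 mesenchyme-linked names were listed and 6 stood at 10 RPM or more in both libraries, led by miR-22-3p (38295 ± 4652 RPM), miR-10b-5p (20818 ± 1303 RPM) and miR-199a-3p (843 ± 14.1 RPM). The lowest were miR-145-5p (0.203 ± 0.104 RPM) and miR-214-3p (0.125 ± 0.0849 RPM), levels as low as that of miR-203a-3p. Their median was 102 RPM. MiR-199b-3p, not on the list, stood at 833 ± 12.6 RPM, and a read assigned to several hairpins counts in each. Which hairpins gave the reads of miR-199a-3p was thus not resolved. MiR-22-3p and miR-10b-5p are also made by many other tissues, and of 4 narrower mesenchymal markers 1 reached 10 RPM in both libraries, miR-143-3p at 99.6 ± 6.71 RPM. In the library test 0 of the 10 epithelial and 0 of the 8 mesenchymal names tested were called in either direction.

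The 1-base difference between the miR-200 seeds changes the letters of the matching site in a target. A match to AAUACUG reads CAGTATT and a match to AACACUG reads CAGTGTT in DNA letters, and these motifs cannot overlap each other. Both were counted on the transcript strand in the longest annotated 3′ UTR per gene in GENCODE 29. ZEB1 (ENST00000446923.6, 2549 bases) held 6 matches to CAGTATT and 3 to CAGTGTT, where 26% and 29.5% of 2384 UTRs of 0.8 to 1.2 times its length held a match. ZEB2 (ENST00000638128.1, 5370 bases) held 5 and 4, where 45.7% and 51.8% of 1118 UTRs of like length held one. At least as many matches as in ZEB1 were held by 1 and 17 of the 2384 UTRs. For ZEB2 the numbers were 1 and 15 of the 1118. These numbers may include the gene itself. For miR-203a-3p (CATTTCA, which can overlap either motif by its last 2 letters) ZEB1 held 4 matches and ZEB2 held 1, against 29.1% and 56.8% of like UTRs with a match. At least 4 were held by 3 of the 2384 UTRs like that of ZEB1. For miR-205-5p (ATGAAGG) ZEB1 held 1 match and ZEB2 held 0, against 19.2% and 34.9%. The match nearest the stop codon for each seed and gene is shown, with the motif in capitals.
ZEB1, seed of miR-200b-3p: tatcttatCAGTATTatcactc
ZEB1, seed of miR-200a-3p: atcagaatCAGTGTTtgtgatt
ZEB2, seed of miR-200b-3p: ccatacatCAGTATTtttatta
ZEB2, seed of miR-200a-3p: attttgtaCAGTGTTaaggcct

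The series concerns miRNAs that act on a BRAF transcript, so the same letters were counted in the longest 3′ UTR of BRAF (ENST00000496384.7, 7167 bases). It held 0 matches to CAGTATT and 1 to CAGTGTT, where 58.9% and 61.0% of 616 UTRs of like length held a match. For miR-203a-3p it held 1 match and for miR-205-5p 0, against 68.7% and 40.7% of like UTRs. These are counts of letters in an annotated sequence. Repression was not measured in these libraries.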

How the data were processed

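Small RNA was sequenced from A375 cells treated with DMSO, 2 libraries of 1 group. The tools CASAVA 1.8 and cutadapt 1.2.1 are named per the submitters' processing notes. The aligner is not given in the sources used here, nor are the miRNA annotation and build. The authors deposited RPM with decimal commas, 1 value per hairpin and mature name. Each column sums to 1000000, a read assigned to several hairpins counts in each, and no entry is 0 in both libraries, so an unlisted name has no value. Ligation bias between sequences means that RPM ratios between miRNAs are not molar. All values were whole multiples of the smallest in their column (100% within 0.01 reads), which gave the reads. Copies of a mature name were reduced to the highest (77.6% and 78.3% of assignments kept). Each member has 1 hairpin.

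Levels are means with SD. Intervals are 95%, Poisson or exact binomial (SciPy 1.17.1). Library and arm tests were Fisher's exact tests over the whole table with Benjamini-Hochberg adjustment. Folds in the library test had 0.5 reads added. In simulated libraries the test recovered 200 of 200 names changed 3-fold among 869, with 5 false calls. Recovery at low reads, such as the 5 and 7 of miR-200b-5p, was not reported separately, so power for such members is not shown. The members, lists and rules were chosen with earlier results of these data known: all members, the names next in level, and the 3 highest and 2 lowest of each list. ZEB1, ZEB2 and BRAF and comparisons of single members were chosen after values were seen. In all, 1317 of 1497 names matched a RefSeq mature sequence, and 0 other columns of samples were present. Other RPM minima, pseudocounts, scalings, fold and read limits, arm choices and leaving out a replicate or guide were tried.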

Additional observations from a re-analysis of the deposited data

How the results depend on the processing

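With copies of mature names removed from the total, the 7 guides summed to 80.3 RPM, since the divisor is smaller. Without a replicate the sum ranged from 54.4 to 70.8 RPM. The members above the minimum in both libraries numbered 6 at 1 RPM, 3 at 5 RPM (miR-200c-3p joined) and 1 at 20 RPM. At 1 RPM 39.6% of all names passed, and the shares of all names at 5 and 20 RPM were not counted. The ratio of the chromosome 12 to the chromosome 1 cluster was 0.694 to 0.882 without a replicate, turned to 1.18 per hairpin and to 4.73 without miR-200b-3p, and fell to 0.555 without miR-200c-3p and 0.233 without miR-141-3p, as fewer guides are summed. The seed ratio was 1.13 per guide, since the seeds have 3 and 2 guides. Names called between the libraries numbered 81 of 869 tested at a 1.5-fold limit, 16 of 869 at 3-fold and 19 of 533 with a minimum of 50 reads. They numbered 34 of 1497 with no read minimum, 38 of 869 with scaled totals and 40 of 869 with copies summed. Members called were 0 in each, which is near these shares for so few members. Pseudocounts of 0.1 and 10 RPM moved the log2 arm ratio of mir-200b to -5.69 and -1.89 and that of mir-200a to -1.35 and -0.26. The same amount is added to both arms, so a pseudocount cannot change the sign. Under the scaling by the median ratio (0.931) the log2 difference of miR-141-3p between libraries was 0.67. Of the alternatives to these main results, replicate omissions included, 2 turned the direction. A further 9 moved the value beyond the replicate spread or a count beyond 1.5-fold, and 17 stayed within those limits. With 2 libraries, leaving 1 out cannot move a level or a ratio beyond the replicate spread. Those omissions were bound to count among the 17. Levels of single guides, arm ratios and library differences of single members were counted apart from these main results. There 14 alternatives moved the value, among them every pseudocount change of an arm ratio, and 74 stayed within the limits. Depth limits miR-203a-3p, miR-205-5p and miR-200b-5p, with 1 to 7 reads a library. No paired analysis was possible because there is 1 group.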
